A study of Homo sapiens with 7 samples.

Results

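ANKRD1, AXL, F3, FJX1, AJUBA and GADD45B, textbook targets of the transcription cofactor YAP and its DNA-binding partners, the TEAD factors, were followed across 7 culture media. They were chosen with earlier results of these data known and taken by symbol from the platform annotation. It gave 10 probes for the 6 genes among 33866 probes, and all 6 genes were among the 7982 genes tested. The cells were of H1, an established line of human embryonic stem cells, kept on matrigel in E8, a fully defined medium without albumin that maintains pluripotency. At passage every culture received 5 μM of the ROCK inhibitor Y27632, which was taken away after 24 hours, and RNA was collected after 2 days of supplement. The supplemented media were E8 with 1 μM LPA (lysophosphatidic acid), with 1 μM LPA and 1% albumin, with 1.6% AlbuMAX (a lipid-rich bovine albumin), with 1% albumin, with 1% CDL (a chemically defined lipid concentrate) and with 0.1x hCDL (a homemade lipid mixture, for which the sample title gives 0.01% instead). Plain E8 served as the control. Every medium stands on 1 Illumina bead array, without replicates.

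LPA acts through its own G protein-coupled receptors on the cell surface. Signals from these receptors build actin stress fibres inside the cell. Actin tension keeps the Hippo kinases LATS1 and LATS2 from phosphorylating YAP and its relative TAZ, which then enter the nucleus, bind TEAD factors and switch on their targets. Among those targets, ANKRD1 is a nuclear ankyrin repeat cofactor best known from heart and stretched muscle, AXL is a receptor tyrosine kinase for the ligand GAS6, and F3 is tissue factor, the membrane protein that starts blood coagulation. FJX1 is the relative of Drosophila four-jointed, a Golgi kinase that in the fly modifies the Fat and Dachsous cadherins upstream of Hippo. AJUBA is a LIM domain protein of cell junctions that binds LATS kinases, and GADD45B is a stress-induced regulator of MAP kinase signalling.

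The DNA before the annotated starts of the 4 genes with the largest LPA differences is shown because TEAD factors bind a short element in target promoters. RefSeq (GRCh38.p14) gave 8 starts for the 6 genes, since AXL and AJUBA have 2 each, and the 250 bases before each start were searched on both strands. Capitals mark matches to the TEAD element (GGAATG, or CATTCC on the other strand) or to the AP-1 element (TGANTCA), which do not overlap each other here. The windows are ANKRD1 at chr10:90921088-90921337 on the minus strand, AXL at chr19:41218973-41219222 for its first start and chr19:41226505-41226754 for its second, both on the plus strand, F3 at chr1:94541760-94542009 on the minus strand, and FJX1 at chr11:35618210-35618459 on the plus strand. Each sequence reads towards the start and ends 1 base before it.
ANKRD1: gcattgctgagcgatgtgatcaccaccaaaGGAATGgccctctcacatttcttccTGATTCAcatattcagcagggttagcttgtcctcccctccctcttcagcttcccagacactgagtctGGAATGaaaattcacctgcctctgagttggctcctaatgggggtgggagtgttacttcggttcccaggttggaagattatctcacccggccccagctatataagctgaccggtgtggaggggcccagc
AXL, first start: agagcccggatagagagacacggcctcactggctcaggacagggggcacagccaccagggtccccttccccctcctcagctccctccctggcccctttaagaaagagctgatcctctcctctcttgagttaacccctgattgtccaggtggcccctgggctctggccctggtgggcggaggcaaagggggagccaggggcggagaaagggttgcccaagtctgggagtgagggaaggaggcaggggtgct
AXL, second start: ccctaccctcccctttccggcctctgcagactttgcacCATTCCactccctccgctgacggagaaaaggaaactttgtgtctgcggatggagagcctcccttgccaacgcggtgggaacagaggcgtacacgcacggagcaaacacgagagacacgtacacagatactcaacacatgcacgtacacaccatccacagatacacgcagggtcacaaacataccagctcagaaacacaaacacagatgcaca
F3: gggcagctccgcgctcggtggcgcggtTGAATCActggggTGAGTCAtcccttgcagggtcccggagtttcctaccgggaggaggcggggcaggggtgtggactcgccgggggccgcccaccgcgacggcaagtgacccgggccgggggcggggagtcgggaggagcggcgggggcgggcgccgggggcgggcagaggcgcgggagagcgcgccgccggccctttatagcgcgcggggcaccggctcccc
FJX1: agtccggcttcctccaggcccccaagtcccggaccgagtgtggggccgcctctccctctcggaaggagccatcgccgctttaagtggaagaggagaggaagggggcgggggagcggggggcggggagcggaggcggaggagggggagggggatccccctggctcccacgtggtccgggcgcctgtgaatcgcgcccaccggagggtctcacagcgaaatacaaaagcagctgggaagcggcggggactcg
The ANKRD1 window held 2 TEAD elements, 220 to 215 and 128 to 123 bases before the start, with 1 AP-1 element between them. The second AXL start had 1 TEAD element, 212 to 207 bases before it, and the F3 window had 2 AP-1 elements and no TEAD element. FJX1 and GADD45B had neither. The second AJUBA start had 1 TEAD element and its first start none. Of all 35116 RefSeq promoter windows of this length, 11.9% held the TEAD element and 6.57% the AP-1 element. The CArG box, the element of serum response factor, was in none of the 8 windows and in 1.16% of all windows. These matches describe the letters only.

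The 4 genes ANKRD1, AXL, FJX1 and F3 were high in the 3 media that hold LPA or AlbuMAX and low in the other 4. AJUBA followed the same order with far smaller steps, and GADD45B was high with LPA + Albumin and AlbuMAX but not with LPA alone. LPA + Albumin gave the highest level of the 7 arrays for 6 of the 6 genes, which 19.4% of all genes tested also showed. For 5 of the 6, all but GADD45B, the levels ran LPA + Albumin, AlbuMAX, LPA and then every other medium, an order held by 6.46% of all genes. In the same 5, each of these 3 arrays lay above each of the other 4, as in 14.7% of all genes. The values below are log2 normalized intensities after background correction, and a probe counts as above background where its detection p-value is below 0.01.

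**Figure D1:**
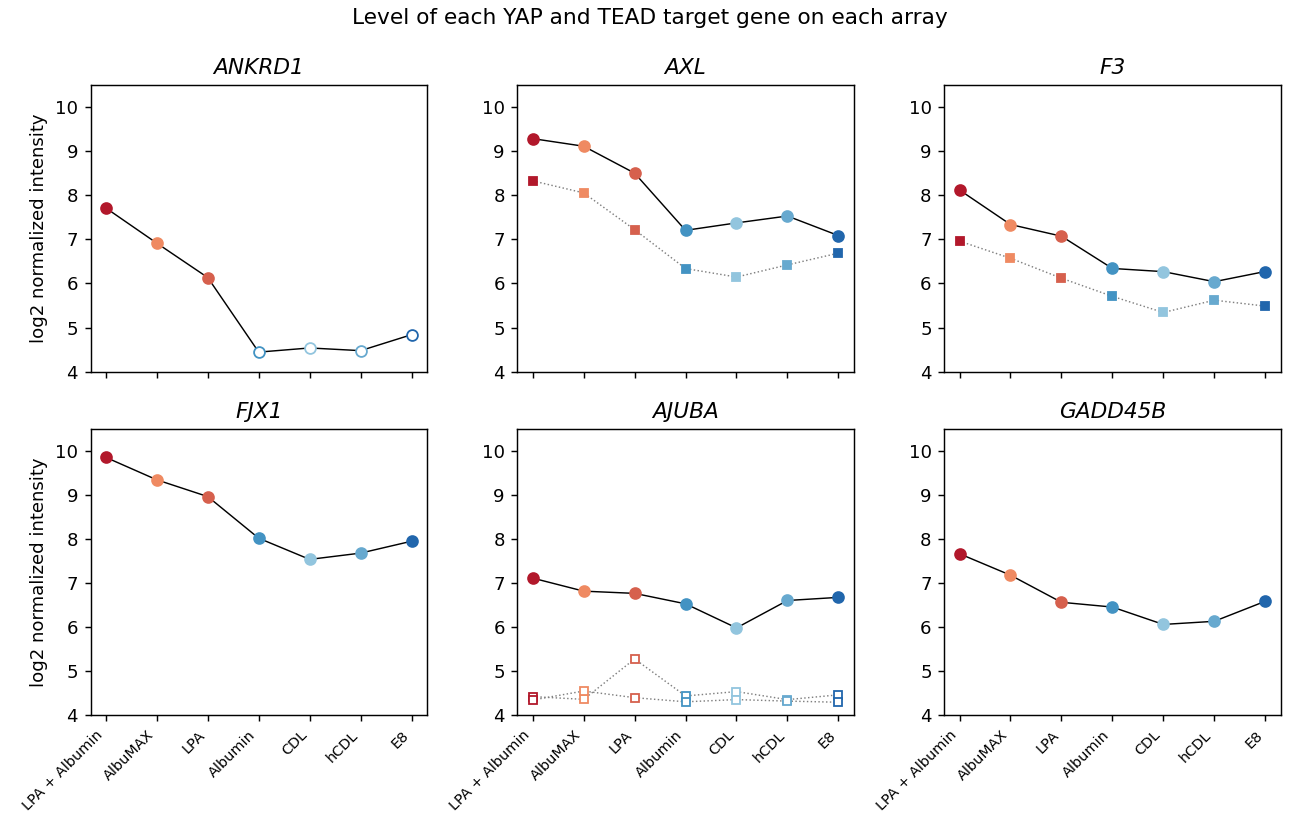
Log2 normalized intensity (y axis) of every probe of the 6 genes on each of the 7 arrays (x axis, 1 array per medium); circles joined by solid lines are the probe that represents the gene, squares joined by dotted lines its other probes, and open symbols are not above background. ANKRD1, AXL, F3 and FJX1 lie higher on the LPA + Albumin, AlbuMAX and LPA arrays than on the other 4, and ANKRD1 is not above background on those 4.

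ANKRD1 was above background with LPA + Albumin, AlbuMAX and LPA and on no other array. Its level was 7.71 with LPA + Albumin, 6.91 with AlbuMAX and 6.13 with LPA, against 4.44 with Albumin, 4.54 with CDL, 4.48 with hCDL and 4.84 in E8. The deposited intensity of the probe, before any correction, was 306 with LPA + Albumin, 197 with AlbuMAX and 160 with LPA, against 104 with Albumin, 108 with CDL, 109 with hCDL and 112 in E8. The 3 high arrays did not overlap the other 4, and ANKRD1 entered the tested genes only through those 3. Against E8, where it was not above background, ANKRD1 was at least 5.09-fold higher with LPA + Albumin, at least 2.93-fold with AlbuMAX and at least 1.71-fold with LPA. The dim side was set to the lowest signal that still passed as above background. These bounds hold for the scaling used here.

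AXL was above background on all 7 arrays. Its level was 9.28 with LPA + Albumin, 9.11 with AlbuMAX and 8.50 with LPA, against 7.20 with Albumin, 7.37 with CDL, 7.53 with hCDL and 7.08 in E8. LPA + Albumin and AlbuMAX lay close together, and the lowest of the 3 high arrays was 0.97 above the highest of the other 4. A second AXL probe read 8.33 with LPA + Albumin, 8.05 with AlbuMAX and 7.22 with LPA, against 6.34, 6.14, 6.42 and 6.69 with Albumin, CDL, hCDL and E8. Both probes kept the same 3 arrays on top. They differed on E8, which was the lowest array on the first probe and the fourth highest on the second.

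FJX1 was above background on all 7 arrays. It stood at 9.85 with LPA + Albumin, 9.34 with AlbuMAX and 8.96 with LPA, against 8.01 with Albumin, 7.53 with CDL, 7.68 with hCDL and 7.95 in E8. F3 stood at 8.12 with LPA + Albumin, 7.34 with AlbuMAX and 7.07 with LPA, against 6.34 with Albumin, 6.27 with CDL, 6.04 with hCDL and 6.27 in E8. Neither gene overlapped between the 3 and the 4 arrays, with gaps of 0.94 for FJX1 and 0.73 for F3. The second F3 probe gave the same order at the top, at 6.96, 6.57 and 6.12 with LPA + Albumin, AlbuMAX and LPA, against 5.34 to 5.71 on the other 4 arrays.

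GADD45B stood at 7.66 with LPA + Albumin, 7.18 with AlbuMAX and 6.56 with LPA, against 6.45 with Albumin, 6.06 with CDL, 6.13 with hCDL and 6.58 in E8. The LPA array lay 0.02 below E8, inside the range of the media without LPA or AlbuMAX. AJUBA stood at 7.11 with LPA + Albumin, 6.81 with AlbuMAX and 6.76 with LPA, against 6.53 with Albumin, 5.98 with CDL, 6.60 with hCDL and 6.67 in E8. The LPA array was only 0.09 above the highest of the media without LPA or AlbuMAX, and those 4 spread over 0.69, the widest spread of the 6 genes. AJUBA had 2 further probes, which were not above background on any array.

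Counted at 1.5-fold over E8 with no test, 5 of the 6 genes were higher with LPA + Albumin (9.52% of all genes), 5 with AlbuMAX (7.69%) and 4 with LPA (6.46%). GADD45B was 1.51-fold higher with AlbuMAX, close to that limit. Albumin, CDL and hCDL put 0 of the 6 at 1.5-fold above E8, beside 2.76%, 3.27% and 2.69% of all genes. The only gene 1.5-fold below E8 was AJUBA with CDL (3.14% of all genes lay that low), at a log2 difference of -0.69. These differences share the E8 array. The median of the 6 genes was 1.87 with LPA + Albumin, 1.23 with AlbuMAX and 0.91 with LPA, against -0.03 with Albumin, -0.36 with CDL and -0.25 with hCDL, while the median of all genes stayed between -0.03 and 0.00.

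With LPA, 4 of the 6 genes rose and the other two did not pass, beside 6.61% of all 7982 genes that rose. This was tested with limma across all 7 arrays, in an additive fit with LPA, albumin, a lipid mixture (CDL or hCDL) and AlbuMAX as terms. ANKRD1 passed (limma adjusted p = 0.00351) and was not above background on the 4 arrays without LPA or AlbuMAX. Its mean over both LPA arrays was at least 3.18-fold above the mean of those 4, in the scaling used here. That bound includes the CDL and hCDL arrays, which do not enter the LPA coefficient, so it is not the contrast behind the p-value. ANKRD1 entered the test only through the 3 arrays where it was high, so its place among the 4 genes is not independent of that filter. The fitted ANKRD1 coefficient of 2.28 (SE 0.37) is no bound. It was 1.29 without the Albumin or the LPA + Albumin array, 3.27 without the E8 or the LPA array, 1.43 with offset 50 and 0.99 without background correction. With 1 of these 4 arrays left out, the LPA coefficient is the remaining pair alone, LPA minus E8 or LPA + Albumin minus Albumin. AXL rose by 1.75 (SE 0.16, limma adjusted p = 9.14e-05), FJX1 by 1.42 (SE 0.17, limma adjusted p = 0.000535) and F3 by 1.29 (SE 0.23, limma adjusted p = 0.00551). Among all genes ranked from the largest fitted increase, AXL was 64th, FJX1 99th and F3 114th. GADD45B had a coefficient of 0.59 (SE 0.25, limma adjusted p = 0.169) and AJUBA of 0.34 (SE 0.23, limma adjusted p = 0.386). Its 2 residual degrees of freedom come from how LPA and albumin combine and from CDL against hCDL, so the p-values gauge departures from additivity and not the spread between cultures. Leaving out the Albumin array cost ANKRD1 and F3 their calls (limma adjusted p = 0.0652 and 0.155), as did leaving out the LPA + Albumin array (limma adjusted p = 0.0875 and 0.186), and with no intensity trend in the variance prior AXL passed and the other 5 did not.

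The further probes of AXL and F3 also rose when each of 10487 probes was fitted on its own. The second AXL probe rose by 1.26 (SE 0.27, limma adjusted p = 0.011) and the second F3 probe by 0.94 (SE 0.23, limma adjusted p = 0.0235). Both coefficients were smaller than those of the brighter probes.

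With AlbuMAX the same 4 genes rose, beside 4.17% of all genes that rose. ANKRD1 passed (limma adjusted p = 0.0118) with a fitted coefficient of 2.57 (SE 0.50), which is no bound because its E8 signal was not above background, and against the E8 array it was at least 2.93-fold higher. That coefficient was 4.05 without the E8 array and 1.12 without background correction. Here too ANKRD1 entered the test only through the 3 arrays where it was high. AXL rose by 2.19 (SE 0.22, limma adjusted p = 0.000204), FJX1 by 1.60 (SE 0.23, limma adjusted p = 0.002) and F3 by 1.31 (SE 0.30, limma adjusted p = 0.0284). GADD45B had 0.90 (SE 0.34, limma adjusted p = 0.154) and AJUBA 0.26 (SE 0.30, limma adjusted p = 0.678). The AlbuMAX coefficient is the distance of 1 array from a fitted E8 level, and that array is assumed to vary like the others. E8, Albumin, LPA and LPA + Albumin set that level, the last entering negatively. CDL and hCDL set only the lipid term. For each of the 6 genes the coefficient exceeded the plain AlbuMAX minus E8 difference. That difference was 2.03 for AXL, 1.39 for FJX1, 1.07 for F3, 0.59 for GADD45B and 0.14 for AJUBA. F3 did not pass without a filter on dim probes (limma adjusted p = 0.102), and with no intensity trend 0 of the 6 passed. The F3 coefficient was 2.04 without the E8 array and 0.76 without background correction. GADD45B had 1.82 with AlbuMAX when the E8 array was left out. Without that array the E8 level is extrapolated from Albumin, LPA and LPA + Albumin, as if LPA and albumin added. The ANKRD1, F3 and GADD45B values without the E8 array are thus not differences from a measured E8 level.

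**Figure D2:**
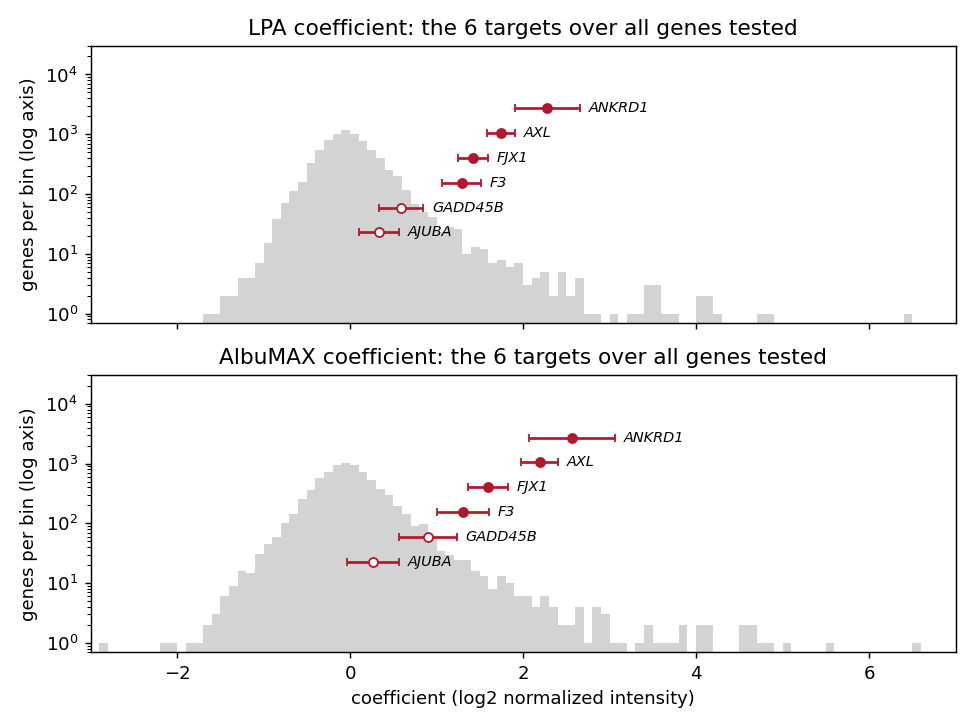
LPA coefficient (upper panel) and AlbuMAX coefficient (lower panel) on the x axis in log2 normalized intensity; grey bars count all 7982 genes per bin of 0.1 on a log y axis, and red points are the 6 genes with their standard error, filled where the limma adjusted p is under 0.05 and spread in height for legibility only. ANKRD1, AXL, FJX1 and F3 lie in the right tail for both supplements, while GADD45B and AJUBA lie nearer the bulk. The ANKRD1 coefficients are no bound, as its probe was not above background in E8.

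LPA + Albumin stood above LPA alone for 6 of the 6 genes. The albumin term of the additive fit, which draws on the Albumin and LPA + Albumin arrays, passed for 0 of the 6 in limma (coefficients 0.10 to 0.59, adjusted p from 0.802 to 0.962, with 3 at an unadjusted p under 0.05), beside 0.0125% of all genes that rose. The lipid term, from CDL and hCDL, passed for 0 of the 6 (-0.26 to 0.53, limma adjusted p from 0.989 to 0.991, with 1 at an unadjusted p under 0.05) and for 0% of all genes. LPA was measured over 2 pairs with no array in common, LPA + Albumin against Albumin and LPA against E8. For ANKRD1, LPA with albumin was at least 5.79-fold above albumin, against at least 1.71-fold for LPA above E8. The log2 differences of the other 5 were 2.08 with albumin against 1.42 without for AXL, 1.83 against 1.01 for FJX1, 1.78 against 0.80 for F3, 1.21 against -0.02 for GADD45B and 0.58 against 0.09 for AJUBA. In a second limma fit, in which every medium but CDL and hCDL has its own level and the error is the difference of those 2, 5 of the 6 genes rose for LPA + Albumin minus Albumin (6.56% of all genes) and 2, AXL and FJX1, for LPA minus E8 (1.7% of all genes). GADD45B was among the 5, at 1.21 (SE 0.25, limma adjusted p = 0.0128), a call that it lost with no intensity trend (limma adjusted p = 0.0708), as F3 did (limma adjusted p = 0.0563), and AJUBA was not, at 0.58 (SE 0.32, limma adjusted p = 0.283). ANKRD1, also among the 5, entered the test only through the 3 arrays where it was high. The AXL call for LPA minus E8 rests on its brighter probe, at 8.50 with LPA and 7.08 in E8. The second AXL probe read 7.22 and 6.69, a smaller step, and was not tested for this pair. These 2 pair tests were added after the values were known.

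The difference between the 2 LPA effects was tested as an interaction in the same fit, and 0 of the 6 genes passed in limma (0.0251% of all genes passed as higher). At an unadjusted p under 0.05, 5 of the 6 were higher, beside 4.56% of all genes. GADD45B had an interaction of 1.23 (SE 0.35, limma adjusted p = 0.486). ANKRD1 had a fitted 1.97 (SE 0.44, limma adjusted p = 0.351), which holds its E8 and Albumin signals, neither of them above background, so its size is not settled. F3 had 0.98, FJX1 0.82, AXL 0.66 and AJUBA 0.49 (limma adjusted p from 0.478 to 0.806). With each probe fitted on its own, the second AXL probe had 1.46 (SE 0.34, limma adjusted p = 0.345). The second F3 probe had 0.62 (SE 0.43, limma adjusted p = 0.766). The ANKRD1 interaction passed without background correction (1.07, limma adjusted p = 0.0268) and in the submitters' processed values (limma adjusted p = 0.01). Only 3 of all genes passed, IGFBP5, LCP1 and MT1G, which are named here after their values were seen.

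Set directly against LPA alone, LPA + Albumin was 1.5-fold higher in 5 of the 6 genes (4.37% of all genes). The log2 differences were 1.58 (SE 0.31) for ANKRD1, 1.10 (SE 0.25) for GADD45B, 1.05 (SE 0.25) for F3, 0.89 (SE 0.16) for FJX1, 0.78 (SE 0.18) for AXL and 0.35 (SE 0.32) for AJUBA. In limma 0 of the 6 passed (adjusted p from 0.0647 for FJX1 to 0.751 for AJUBA, with 5 at an unadjusted p under 0.05), beside 0.175% of all genes that rose. The call turned on the scaling. All but AJUBA passed without background correction, where 1.04% of all genes rose, in the submitters' values (1.25%) and with median centring (1.17%), while with an offset of 50 ANKRD1 and FJX1 passed (0.489%) and with cyclic loess FJX1 did (0.464%).

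AlbuMAX lay between LPA + Albumin and LPA. It was 1.5-fold above LPA for ANKRD1, AXL and GADD45B (3.24% of all genes), with log2 differences of 0.78, 0.61 and 0.61. LPA + Albumin was 1.5-fold above AlbuMAX for ANKRD1 and F3 (2.98% of all genes), with differences of 0.80 and 0.78. In limma 0 of the 6 passed for AlbuMAX minus LPA (adjusted p from 0.556 to 0.986, with 4 at an unadjusted p under 0.05, beside 0.0125% of all genes that rose) and 0 for LPA + Albumin minus AlbuMAX (adjusted p from 0.693 to 0.881, with 3 at an unadjusted p under 0.05, beside 0.0251% of all genes). These neighbours in the order were thus not told apart, and for AXL the LPA + Albumin and AlbuMAX arrays were 0.17 apart (SE 0.18).

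**Figure D3:**
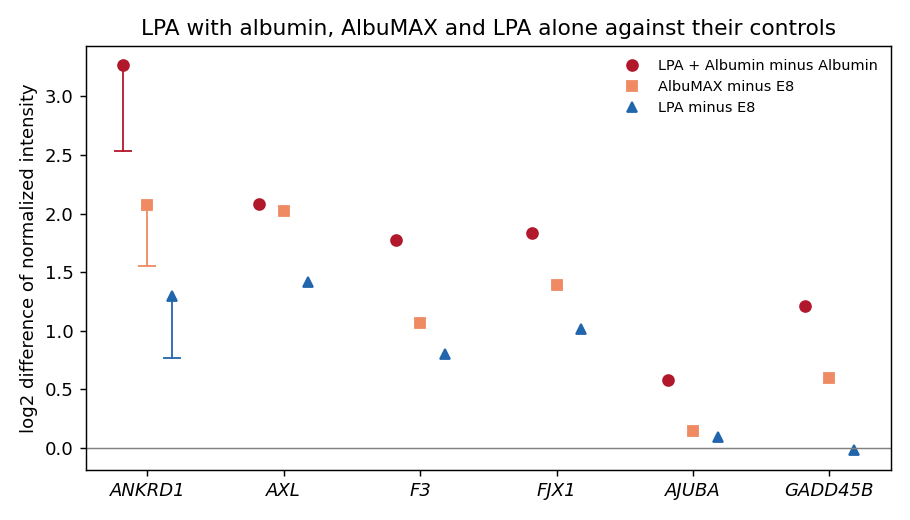
Log2 difference of normalized intensity (y axis) for each of the 6 genes (x axis), 1 array against 1 array: LPA + Albumin minus Albumin (circles), AlbuMAX minus E8 (squares) and LPA minus E8 (triangles). The line below each ANKRD1 symbol ends at the smallest difference that its missing signal on the lower array allows. LPA with albumin is the highest symbol for each gene, and for GADD45B LPA minus E8 is at -0.02.

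Across the 7 arrays the 6 genes tracked one another, with Pearson correlations from 0.70 (AXL with AJUBA) to 0.98 (ANKRD1 with FJX1) over the 15 pairs, and none below 0.83 among pairs without AJUBA. These describe 7 arrays that share the same split of high and low media. Of 796 genes that were above background on at least 3 arrays and varied by at least 1 on the log2 scale, those most like ANKRD1 were NOCT (r = 0.998), S100A11 (0.997) and ACTN4 (0.997). Those most like AXL were FOXD1 (0.996), TOX2 (0.996) and LSP1P5 (0.994). For F3 they were KCNMB1 (0.998), RIPOR1 (0.998) and TUFT1 (0.997), and for FJX1 AHNAK (0.998), PLAU (0.998) and FAM174B (0.997). GADD45B was matched less closely, by LAMA5 (0.975), LEPR (0.969) and SCHIP1 (0.966), and AJUBA by SUSD6 (0.964), C1QTNF1 (0.954) and RPS6KA4 (0.949).

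Of 19 other known targets of YAP and TEAD, 10 had a named probe and 6 of these passed the filter on dim probes. This list and those below were chosen with earlier results of these data known, so their shares beside all genes are description only. Of the 6, 3 rose with LPA (6.61% of all genes rose) and 3 did not pass, with a median coefficient of 0.40 beside -0.03 for all genes. MYOF, a membrane repair protein, rose with LPA (limma adjusted p = 4.43e-05) and was not above background on the 4 arrays without LPA or AlbuMAX. Its mean over both LPA arrays was at least 9.13-fold above the mean of those 4, in the scaling used here. The fitted MYOF coefficient of 3.67 is no bound, and was 2.65 with offset 50 and 1.95 without background correction. MYOF entered the test only through the 3 arrays where it was high. GADD45A, the close relative of GADD45B in DNA damage signalling, rose by 1.45 (SE 0.19, limma adjusted p = 0.000915). PTPN14, a phosphatase that also restrains YAP, rose by 0.45 (SE 0.12, limma adjusted p = 0.034), and this call was lost without the Albumin, LPA + Albumin, E8 or LPA array, whichever was left out. With AlbuMAX 2 of the 6 rose (4.17% of all genes).

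Upstream of the targets, 11 Hippo kinases, scaffolds and regulators had a named probe and 9 passed the filter. Of the 9, 2 rose with LPA and 0 fell, beside 6.61% of all genes that rose and 4.13% that fell. These were PTPN14 and FRMD6, a FERM domain protein of the Hippo pathway, which rose by 0.59 (limma adjusted p = 0.0457). The FRMD6 call was lost in 8 of 17 alternatives, with limma adjusted p up to 0.568 when the LPA + Albumin array was left out. YAP1, WWTR1 (the gene of TAZ) and the TEAD and VGLL genes were not analysed here.

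Of 12 partners and relatives of the 6 genes with a named probe, 9 passed the filter. Of the 9, 2 rose with LPA and 0 fell (6.61% and 4.13% of all genes), namely GADD45A and LPP, a LIM protein of focal adhesions in the zyxin family, which is related to AJUBA. LPP rose by 1.14 (SE 0.12, limma adjusted p = 0.000176). The AXL ligand genes did not pass, GAS6 at 0.38 (SE 0.16) and PROS1 at -0.45 (SE 0.16), nor did the AXL family receptor TYRO3 at -0.05 (SE 0.10). F7, the coagulation factor that tissue factor binds, was above background on 1 array, and GADD45G had 0.09 (SE 0.17).

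**Figure D4:**
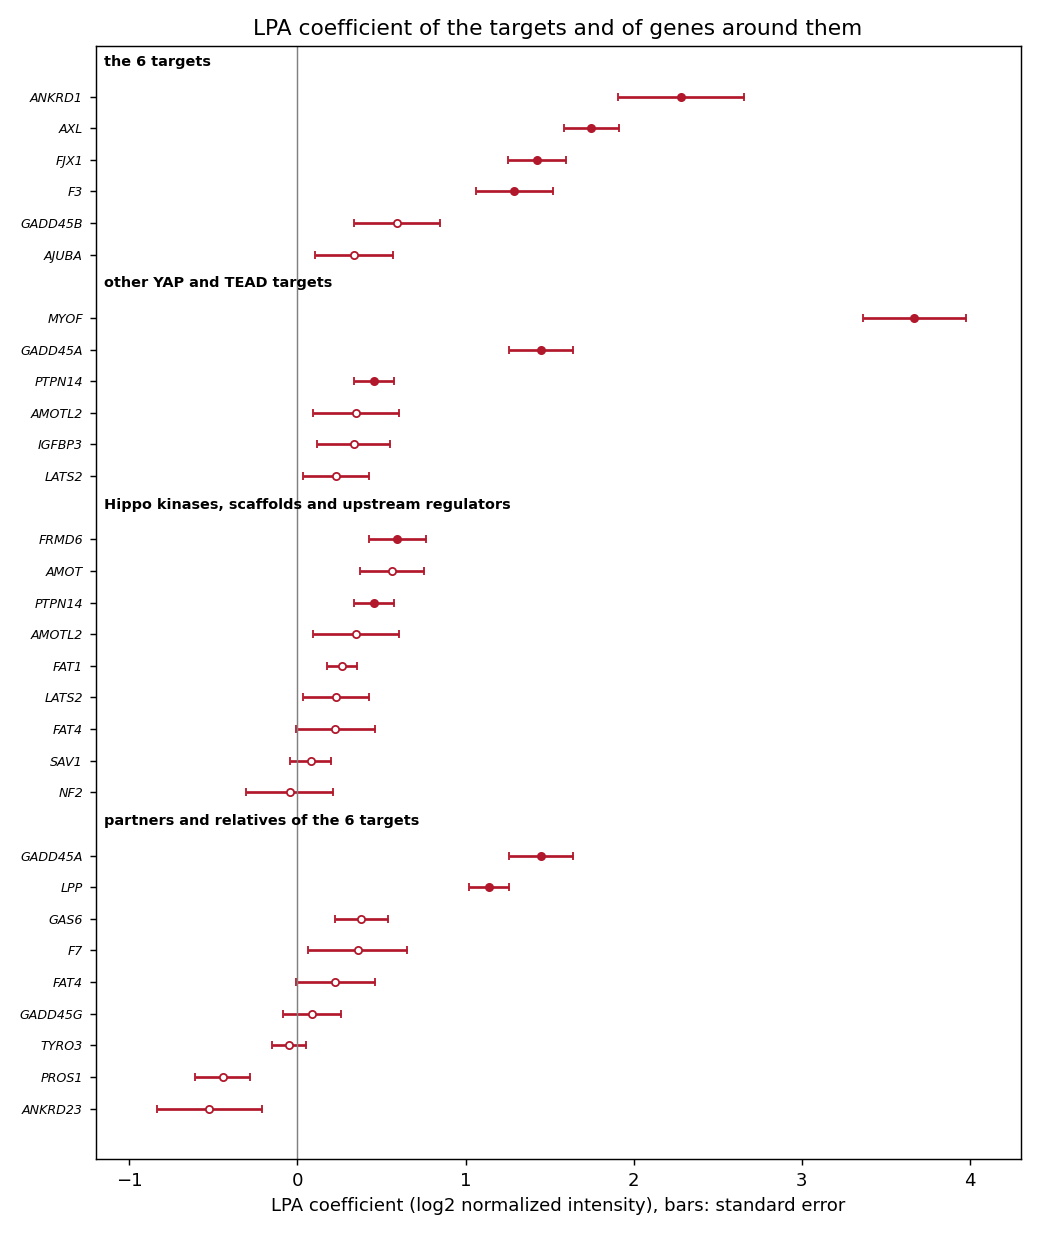
LPA coefficient in log2 normalized intensity (x axis) with its standard error (bars) for the 6 genes and the tested genes of 3 lists around them (rows), filled where the limma adjusted p is under 0.05; a gene of several lists is drawn in each. The targets MYOF and ANKRD1 lie farthest to the right, and the Hippo and partner genes lie nearer 0 apart from GADD45A and LPP.

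Markers of cell types other than pluripotent cells were checked on the same arrays. The pluripotency genes POU5F1, NANOG and LIN28A, the 3 of 8 markers that were tested, were above background on all 7 arrays and none passed for LPA. The log2 of their summed intensity was 13.55 to 13.69 on the LPA + Albumin, AlbuMAX and LPA arrays and 13.72 to 13.79 on the other 4. These ranges did not overlap, but the step was small and LIN28A, the brightest, carried most of the sum. Gene by gene, POU5F1 overlapped (10.82 with LPA, 10.61 in E8). LIN28A did too (13.34 with LPA + Albumin, 13.32 with CDL), and NANOG did not. Of 8 mesenchyme and fibroblast markers 3 were tested, and TWIST1 rose with LPA while THY1 and PDGFRB did not pass. TWIST1 was not above background on the 4 arrays without LPA or AlbuMAX. Its mean over both LPA arrays was at least 17.2-fold above the mean of those 4, in the scaling used here. TWIST1 entered the test only through the 3 arrays where it was high. The log2 of the summed intensity of the 3 markers was 11.7 to 11.9 on the 3 high arrays and 11.2 to 11.6 on the others. THY1, with an LPA coefficient of -0.02 (SE 0.11), was the brightest on every array and carried most of that sum. Of 6 neural markers 2 were tested, and NES rose by 1.60 and OTX2 did not pass. The log2 of their summed intensity, mostly NES, was 11.4 to 11.7 on the 3 high arrays and 10.2 on each of the others. Of 6 endoderm markers 2 were tested and of 7 trophoblast and amnion markers 1, with 0 passing, and no primitive streak marker was tested. The part of these genes in the result on the YAP and TEAD targets was not tested, and in RNA from whole cultures more cells with a gene and more RNA per cell cannot be told apart.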

How the data were processed

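Each of 7 media was measured on 1 Illumina bead array. The deposited table gives for every probe on every array, per the file headers, an intensity that is not normalized and a detection p-value. A second deposited table holds processed intensity values, on a linear scale with nearly equal medians (112.4 to 112.5), and served as an alternative. No source used here names the software behind either.

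Intensities were background-corrected (normexp, offset 16), quantile normalized and log2 transformed by neqc in limma 3.58.1 (R 4.3.3). Raw medians ran from 108.5 to 116.9, and 34.6% to 37.3% of probes were above background. Probes above background (detection p-value under 0.01) on 1 array or more entered the test, the brightest one standing for its gene. Of 33866 probes, 19221 carried a single gene symbol, 3 carried several, and 14642 were left without a name. Of the 10 probes of the 6 genes, 8 were kept.

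The additive limma fit used an intensity trend and Benjamini-Hochberg adjustment over 7982 genes, called at 0.05. Folds given as "at least" replace a dim signal by the lowest signal that passed as above background on its array, or by its own value if higher. They hold for the main scaling only, and other scalings can give smaller folds. A bound over both LPA arrays compares their mean with that of the 4 arrays without LPA or AlbuMAX. The 6 genes and the lists were chosen with earlier results of these data known. List genes were named by a rule, up to 4 per list with the largest LPA coefficient among those passing, partners of the 6 genes freely. Tests between pairs of media were added after the values were known. The fits were tested on simulated data: for LPA, with 200 of 7982 genes changed, the fit found 90% of the 2-fold and 100% of the 4-fold changes and made 25 false calls. The shares were 73% and 99% for AlbuMAX, with 13 false calls, and 49% and 94% for the interaction, with 24. In each simulation the false calls were a larger share of all calls than the 0.05 aimed at. The simulated data for LPA and AlbuMAX held no interaction of LPA with albumin, so departures of that kind were not covered. Alternatives covered scaling, offset, filter, trend, choice of probe and leaving out each array. One gene list is not reported here.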

Additional observations from a re-analysis of the deposited data

How the results depend on the processing

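The number of arrays limits the precision, and with 1 array per medium no p-value here measures the spread between cultures. Media were compared in pairs, but no replicate cultures could be paired because each medium has 1 array. For LPA, 858 genes passed in the main setting, 498 when dim probes were kept, 162 without an intensity trend, and 149 to 903 when 1 array was left out (161 without Albumin, 149 without LPA + Albumin). Of the 6 YAP and TEAD targets 4 passed, 1 without an intensity trend (AXL), and 2 to 5 when 1 array was left out. It was 2 (AXL and FJX1) without Albumin or without LPA + Albumin, and 5 without E8 or without LPA, where GADD45B also passed (limma adjusted p = 0.013 and 0.0125). Leaving out any of these arrays reduces the LPA coefficient to 1 pair of arrays, the same differences as in the pair tests. The split of genes that rose and fell, 528 and 330, was 508 and 201 with median centring and 589 and 225 with cyclic loess. For AlbuMAX, 492 genes passed, 285 without the filter and 0 without an intensity trend, where 0 of the 6 targets passed against 4 in the main setting. Leaving out 1 array gave 397 to 555 genes and 4 to 5 targets.

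For the interaction 3 genes passed, against 21 without background correction, 29 in the submitters' values, 13 with median centring, 7 with cyclic loess, 12 with the mean of probes, and 0 without the filter or without an intensity trend. Of the targets 0 passed, and 1 (ANKRD1) without background correction and in the submitters' values. Without the AlbuMAX array, a setting added after seeing the data, 3 genes and 0 targets passed. No other array could be left out, since the interaction compares 4 of them and its error is CDL against hCDL. In the pair tests, 0 targets passed for LPA + Albumin minus LPA, against 5 without background correction, 5 in the submitters' values, 5 with median centring, 2 with offset 50 and 1 with cyclic loess. Without an intensity trend 3 (ANKRD1, AXL and FJX1) passed for LPA + Albumin minus Albumin (5 in the main setting) and 0 for LPA minus E8 (2 in the main setting).

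Counts at 1.5-fold from E8 fell without background correction, in the submitters' values and with offset 50. They were 172, 170 and 334 in that order for LPA (851 in the main setting), 295, 296 and 492 for AlbuMAX (1074), 427, 427 and 683 for LPA + Albumin (1320), 16, 16 and 54 for Albumin (423), 34, 34 and 99 for CDL (512), and 4, 4 and 36 for hCDL (382). For the 6 targets the count with LPA was 2 in the first 2 of these settings (4 in the main setting), that with AlbuMAX was 4 in these 3 settings and with median centring (5 in the main setting), and that with CDL was 0 in each of the 3 (1 in the main setting). LPA + Albumin remained the highest array for 6 of 6 targets under each of the 5 other scalings. The full order of media held for 6 targets with cyclic loess and for 5 under every other scaling. Which targets held it turned on small steps. GADD45B had LPA minus E8 at 0.01 with cyclic loess and 0.07 with median centring, where AJUBA had AlbuMAX minus LPA at -0.05. Why the settings differ was not tested.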
